A study of Mus musculus with 9 samples.

Results

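Angiogenic factors and angiopoietin-like proteins are secreted proteins through which fat cells and their precursors can act on blood vessels and on lipid uptake. The group described here holds 8 genes of 4 families, picked from the tables by gene symbol, with earlier results of these data known: the angiopoietins Angpt1 and Angpt2, the angiopoietin-like genes Angptl2 and Angptl4, the VEGF ligands Vegfb and Vegfc, and the thrombospondins Thbs1 and Thbs2. All 8 were found, out of 19094 genes listed in at least 1 sample, and all 8 had reads in every sample.

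The samples were 3T3-L1 cells, a clonal mouse fibroblast line that turns into lipid-storing adipocytes when induced, sequenced as bulk RNA at 3 stages with 3 samples each (9 samples). Day 0 cells had not yet been induced. Day 4 cells had been given 2 days of induction medium (dexamethasone, IBMX and insulin) and then 2 days of maintenance medium containing insulin, and day 8 cells a further 4 days of maintenance medium. No sample carried a transgene or a knockdown. Nothing in the labels says that the 3 samples of a day came from separate cultures. The paper's methods state that the cells of each stage were pooled and that samples were made by mixing RNA. The p-values therefore measure only the spread between these samples, which may be technical. Depth was even, between 18216114 and 20452144 expected counts per sample.

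Angiopoietin 1 activates the endothelial receptor Tie2 and steadies vessels, and angiopoietin 2 competes with it at the same receptor. VEGF ligands act on tyrosine kinase receptors of blood and lymph vessels, with neuropilins as co-receptors. Thrombospondins 1 and 2 are matrix proteins that restrain vessel growth, in part through CD36 and CD47, while angiopoietin-like 4 inhibits lipoprotein lipase, the enzyme that frees fatty acids from circulating triglyceride.

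The label "adipocytes" stands on all 9 samples, but the marker genes of adipocytes were low at day 0. There 5 of the 7 markers were at 0.77 FPKM or lower, while Fabp4 was at 9.52 ± 1.57 and the lipase gene Lipe at 5.83 ± 0.167 FPKM (SD, n = 3). The summed FPKM (fragments scaled to transcript length and to library depth) of the 7 adipocyte markers was 16.6, 19.1 and 16 in the day 0 samples, between 4992 and 7328 at day 4 and between 7567 and 8096 at day 8. Fabp4, the fatty acid binding protein of fat cells, was the most abundant of them at each stage. The 7 fibroblast markers were abundant at every stage. Their summed FPKM was between 7673 and 8034 at day 0, between 5799 and 6310 at day 4 and between 7495 and 7763 at day 8. Markers of cells other than these were scarce. The 11 endothelial markers summed to between 1.48 and 2.73 FPKM, with Egfl7 the most abundant and Cldn5 and Tie1 not listed in any sample. The 5 mural markers summed to at most 1.53 FPKM and 4 leukocyte markers to at most 1.82, with Cd3e listed in no sample. The extraction text of the labels speaks of DRG, an abbreviation in use for dorsal root ganglia, and 10 sensory neuron markers summed to at most 3.19 FPKM in any sample. In bulk RNA of this kind, fewer cells expressing a gene and less of its RNA per cell cannot be told apart.

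Between day 0 and day 4, the early phase, Angptl4 and Angpt1 became more abundant and Thbs1 and Thbs2 less abundant, each by more than 2-fold. Between day 4 and day 8, the late phase, Thbs1 regained part of its level. Over the whole process, day 8 against day 0, Angptl4 was 12.8-fold and Angpt1 2.09-fold higher, and Thbs1 was 5.40-fold and Vegfc 2.41-fold lower. A gene passed the test at an adjusted p under 0.05 (edgeR's quasi-likelihood test, Benjamini-Hochberg over 13154 genes) and was called when its fold change was also above 2. All 8 genes passed the filter on low counts.

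**Figure D1:**
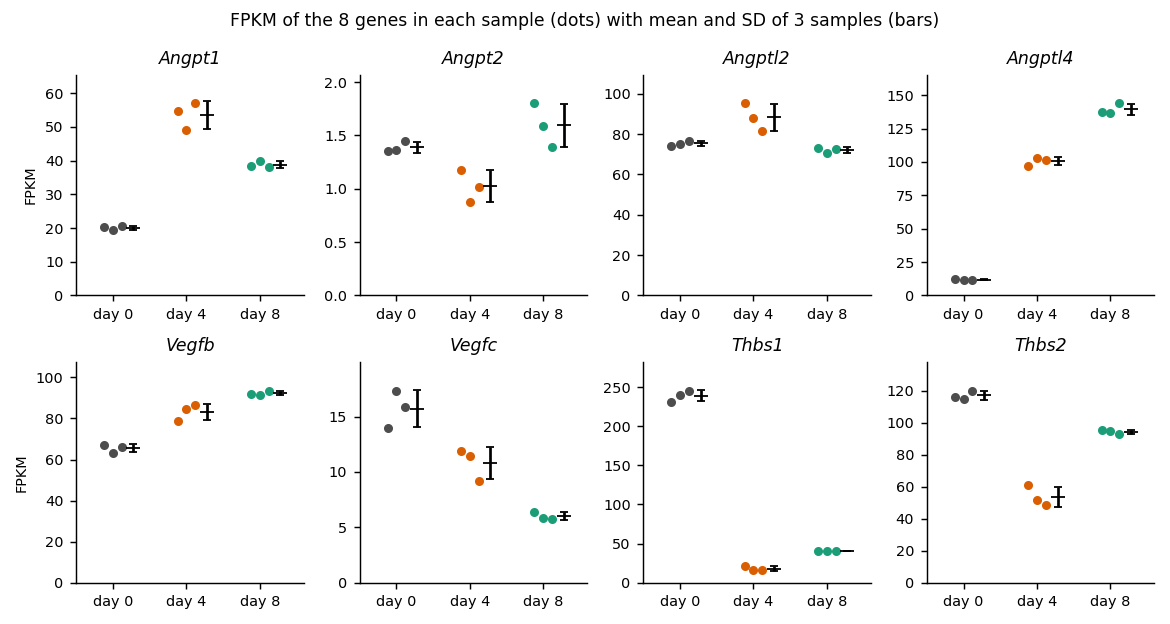
Each panel plots the FPKM of 1 gene in the 9 samples by day (dots) with the mean and SD of 3 samples (black bars), on axes that start at 0. Angptl4 climbs from about 12 to about 139 FPKM, and Thbs1 drops from about 239 to about 18 before reaching about 41.

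Of the thrombospondins, Thbs1 was the most abundant of the 8 genes at day 0. Its FPKM was 231, 240.0 and 245 in the 3 day 0 samples, 21.7, 16.8 and 16.01 at day 4, and 40.9, 40.8 and 41.2 at day 8. All day 4 samples were far below all others and the 3 days did not overlap. In the early phase Thbs1 fell by 3.65 on the log2 scale (SE 0.09, adjusted p = 6e-15), so that its level was 12.5-fold lower, and it rose late by 1.22 (SE 0.08, adjusted p = 7.2e-09). Over the whole process its log2 fold change was -2.43 (SE 0.08, adjusted p = 3.1e-13).

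Thbs2 followed the same order of days in a narrower range. Its FPKM was 116, 115 and 120.0 at day 0, 60.8, 51.5 and 48.8 at day 4, and 95.5, 94.7 and 93.1 at day 8. Day 0 was highest and day 4 lowest, with no overlap between days. Early it fell by 1.06 on the log2 scale (SE 0.06, adjusted p = 4.6e-10), and late it rose by 0.86 (SE 0.06, adjusted p = 2.4e-08). Over the whole process it fell by 0.20 (SE 0.06, adjusted p = 0.012). The early fall lies at the edge of the 2-fold line and reads -0.99 without day 4 replicate 3. The whole-process difference has an adjusted p of 0.057 without day 8 replicate 3. By adjusted p alone, 1 of the 7 fibroblast markers rose and 5 fell early, against 35.5% and 33.7% of all tested genes. In the late phase 4 rose and 3 fell, against 22.5% and 22.7%. Dlk1 alone was called, lower early (log2 fold change -2.128) and higher late (1.245), the same signs as Thbs1 and Thbs2. Of all tested genes 7.98% were called lower early and 4.24% higher late. What part such shifts had in the levels of Thbs1 and Thbs2 was not tested.

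Angptl4 moved the furthest of the 8 genes over the whole process. Its FPKM was 12.2, 11.5 and 11.7 at day 0, 97.2, 103 and 102 at day 4, and 137, 137 and 144 at day 8. Each day lay above the day before it, without overlap. Angptl4 rose early by 3.16 on the log2 scale (SE 0.06, adjusted p = 1.1e-16), or 8.91-fold, and again late by 0.52 (SE 0.05, adjusted p = 1.7e-07), or 1.43-fold. The whole-process log2 fold change was 3.67 (SE 0.06, adjusted p = 4.7e-17).

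Angptl2, a secreted relative that has been linked to inflammation in fat tissue, was among the abundant genes at every stage and moved little. Its FPKM was 74.3, 75.1 and 76.8 at day 0, 95.3, 88.2 and 81.7 at day 4, and 73.2, 70.6 and 72.6 at day 8. Day 4 was highest, and the day 8 samples lay just below those of day 0. It rose early by 0.30 on the log2 scale (SE 0.05, adjusted p = 0.00013) and in the late phase fell by 0.25 (SE 0.05, adjusted p = 0.0014). The whole-process log2 fold change was 0.05 (SE 0.05, adjusted p = 0.44) and turns to -0.06 without TMM factors, so its sign depends on the scaling of the libraries.

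Angpt1 was highest in the middle of the course. Its FPKM was 20.3, 19.4 and 20.6 at day 0, 54.6, 49.0 and 57.0 at day 4, and 38.4, 40.0 and 38.1 at day 8. The 3 days were separate, with day 8 between the others. Angpt1 rose early by 1.48 on the log2 scale (SE 0.06, adjusted p = 1e-12) and in the late phase fell by 0.42 (SE 0.05, adjusted p = 9.6e-06). The whole-process value of 1.06 (SE 0.06, adjusted p = 6e-11) passes the 2-fold line by little, and it is 0.95 without TMM factors and 0.92 with limma on log2(FPKM + 1).

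Angpt2 was the least abundant of the 8 genes at each stage, with 64.3 to 130 expected counts per sample. Its FPKM was 1.35, 1.36 and 1.45 at day 0, 1.18, 0.88 and 1.02 at day 4, and 1.80, 1.59 and 1.39 at day 8. Day 4 was lowest, and days 0 and 8 overlapped. In the early phase it fell by 0.37 on the log2 scale (SE 0.15, adjusted p = 0.034) and rose late by 0.68 (SE 0.14, adjusted p = 0.0011), while the whole-process value of 0.31 (SE 0.14, adjusted p = 0.056) did not pass. The early fall is not past the threshold with DESeq2 (adjusted p = 0.07), nor without day 0 replicate 1 (0.053), day 0 replicate 3 (0.093), day 4 replicate 2 (0.13) or day 4 replicate 3 (0.066). The whole-process rise passes it with DESeq2's size factors in edgeR (adjusted p = 0.046) and without day 4 replicate 1 (0.047), day 4 replicate 2 (0.042) or day 8 replicate 3 (0.025).

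The 2 VEGF ligands moved apart. Vegfb, which signals through VEGFR1 and is known for its part in lipid handling, was abundant throughout. Its FPKM was 67.3, 63.4 and 66.3 at day 0, 78.7, 84.7 and 86.3 at day 4, and 92.1, 91.5 and 93.5 at day 8. Each day lay above the one before it. It rose early by 0.40 (log2, SE 0.05, adjusted p = 2.5e-06) and late by 0.20 (SE 0.05, adjusted p = 0.0036), which made 0.60 over the whole process (SE 0.05, adjusted p = 1.9e-08), or 1.51-fold.

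Vegfc, the ligand of VEGFR3 that drives lymphatic vessel growth, ran the other way. Its FPKM was 14.0, 17.3 and 15.8 at day 0, 11.9, 11.4 and 9.18 at day 4, and 6.40, 5.89 and 5.76 at day 8. Each day lay below the one before it, with no overlap. Its log2 fold change was -0.47 early (SE 0.10, adjusted p = 0.00043) and -0.81 late (SE 0.11, adjusted p = 1.3e-05), and the whole-process log2 fold change was -1.27 (SE 0.10, adjusted p = 1.4e-08).

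**Figure D2:**
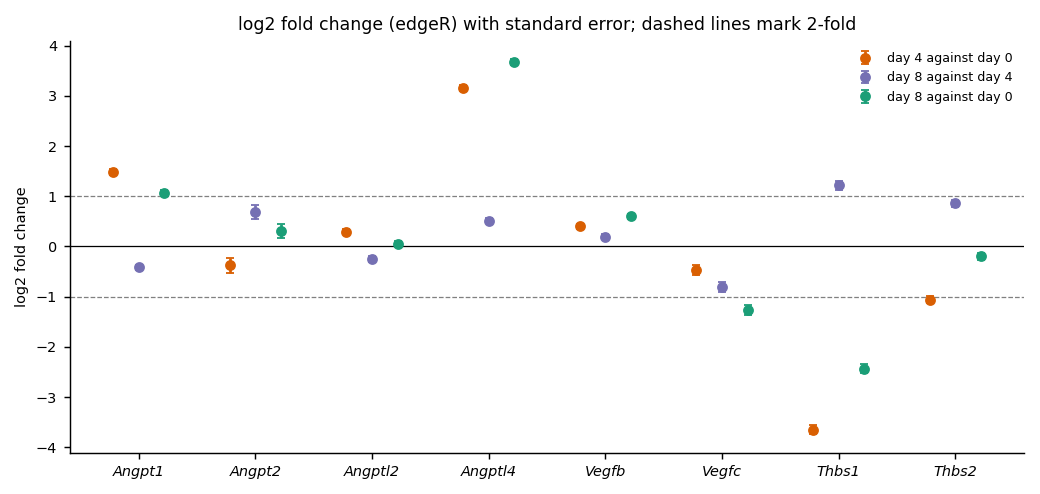
Points are log2 fold changes of the 8 genes in the early phase, the late phase and the whole process, with standard errors, and dashed lines mark 2-fold. Angptl4 (3.16 early) and Thbs1 (-3.65 early) lie furthest from 0, Thbs1 and Thbs2 turn from below 0 early to above 0 late, and the whole-process point of Angptl2 (0.05) turns to -0.06 without TMM factors.

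The sequences upstream of the VEGF pair are shown because these related genes moved in opposite directions. They are the 250 bases before each RefSeq gene start on mouse build GRCm38.p6, at chr19:6987652-6987901 on the minus strand for Vegfb and chr8:54077282-54077531 on the plus strand for Vegfc, printed 5′ to 3′ along the gene. Capitals mark the GC box GGGCGG on either strand.
Vegfb: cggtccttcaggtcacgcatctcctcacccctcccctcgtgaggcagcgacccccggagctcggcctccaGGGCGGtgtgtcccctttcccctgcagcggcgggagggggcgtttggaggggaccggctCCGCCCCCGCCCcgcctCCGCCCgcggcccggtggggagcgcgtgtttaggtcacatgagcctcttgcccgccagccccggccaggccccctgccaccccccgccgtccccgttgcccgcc
Vegfc: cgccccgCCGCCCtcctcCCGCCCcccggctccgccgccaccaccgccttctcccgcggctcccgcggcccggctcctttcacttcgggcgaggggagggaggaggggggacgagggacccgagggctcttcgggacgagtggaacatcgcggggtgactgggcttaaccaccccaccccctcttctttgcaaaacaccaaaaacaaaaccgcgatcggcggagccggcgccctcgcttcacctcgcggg

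Both windows were rich in G and C. The Vegfb window held 4 GC boxes, 26 CpG and 76.4% GC, and the Vegfc window 2 GC boxes, 30 CpG and 71.6% GC, against a median of 6 CpG and 52.4% GC over 32536 mouse windows of that length. The GC box was found in 33.0% of those windows. The Vegfb window also held 2 copies of AGGTCA, a nuclear receptor site found in 14.0% of windows, and the Vegfc window none. Neither window held TATAAA, found in 12.3% of windows. The CCAAT box, found in 33.8% of windows, was in neither of them. The Thbs2 window had no GC box, 46.8% GC, 1 TATAAA and 2 CCAAT boxes, and that of Angptl2 had 2 GC boxes and 66.8% GC. Motifs were counted on both strands, and 2 of the GC boxes of Vegfb adjoin each other. A match of letters is not evidence of a working site. Windows for Angpt1, Angpt2, Angptl4 and Thbs1 were not analysed here.

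The counts of calls among the 8 genes are given beside the share of all tested genes called the same way. In the early phase 2 of 8 were called higher and 2 of 8 lower, against 9.77% and 7.98% of the 13154 tested genes. At adjusted p alone 4 rose and 4 fell, against 35.5% and 33.7% of all genes. In the late phase 1 was called higher and none lower, against 4.24% and 2.81%, and 5 rose and 3 fell by adjusted p alone, against 22.5% and 22.7%. Over the whole process 2 were called higher and 2 lower, against 10.3% and 7.70%, and 3 rose and 3 fell, against 34.8% and 36.2%. The median log2 fold change of the 8 genes was -0.04 early, 0.36 late and 0.18 over the whole process, beside 0.02, -0.01 and -0.02 for all tested genes.

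The order of the levels, in FPKM and so per transcript length, was recast. At day 0 it ran Thbs1, Thbs2, Angptl2, Vegfb, Angpt1, Vegfc, Angptl4 and Angpt2, and no neighbours overlapped. At day 4 Angptl4 led, followed by Angptl2 and Vegfb, which overlapped, then Thbs2 and Angpt1, which also overlapped, then Thbs1, Vegfc and Angpt2. At day 8 Angptl4 led again, followed by Thbs2 and Vegfb, which overlapped, and then by Angptl2, Thbs1, Angpt1, Vegfc and Angpt2. Of the summed FPKM of the 8 genes, the thrombospondins made up 65.2% ± 0.418 at day 0 (SD, n = 3), then 17.5% ± 1.83 and 27.9% ± 0.383. Angptl4 went from 2.16% ± 0.101 to 24.6% ± 1.31 and 28.7% ± 0.604.

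Within each family the balance of the related genes shifted, and a ratio within a sample does not depend on library scaling. Angpt1 was 14.5 times as abundant as Angpt2 at day 0, 52.4 times at day 4 and 24.5 times at day 8, with log2 ratios of Angpt2 to Angpt1 of -3.86 ± 0.05, -5.71 ± 0.16 and -4.62 ± 0.18 (SD, n = 3). Vegfb was 4.19 times Vegfc at day 0, 7.72 times at day 4 and 15.4 times at day 8. Angptl4 went from 0.156 of the Angptl2 level to 1.14 and then 1.93 times it. Thbs2 went from 0.490 of the Thbs1 level to 2.97 and then 2.30 times it.

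The 3 days did not overlap in any of these ratios. The exact permutation test over all ways of assigning 9 samples to 3 days of 3 gave p = 0.00357 for each of the 4 ratios, the smallest value this test can give (0.00357 after Benjamini-Hochberg adjustment over 4 ratios). The genes were picked with earlier results of these data known, and the test treats the 9 samples as independent. Its p-value thus covers only the spread between these samples, which may be technical.

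**Figure D3:**
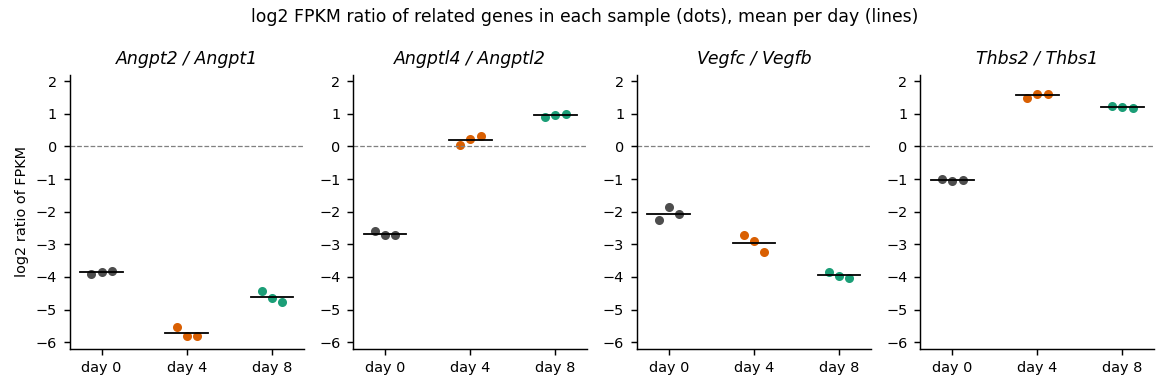
Dots are log2 ratios of FPKM between the 2 genes of a family in each sample, lines are the means of 3 samples, and the dashed line is an equal level. Thbs2 to Thbs1 and Angptl4 to Angptl2 pass from below the line at day 0 to above it, and Vegfc to Vegfb steps down from -2.07 to -3.94.

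The receptors through which angiopoietins and VEGF ligands act were mostly scarce in these cells. Tek, which encodes Tie2, was at 0.19 FPKM or lower in every sample, Ptprb, a phosphatase acting on Tie2, at 0.01 or lower, and Tie1 was not listed. Kdr (VEGFR2) was at 0.05 FPKM or lower and Flt4 (VEGFR3) was listed in 1 sample, at 0.01. Flt1 (VEGFR1), the receptor of Vegfb, was at 0.640 ± 0.02 FPKM at day 0, 0.423 ± 0.0586 at day 4 and 0.623 ± 0.166 at day 8. In the early phase it fell by 0.53 on the log2 scale (adjusted p = 0.023) and rose late by 0.62 (adjusted p = 0.017). Days 4 and 8 overlapped, with 0.45 FPKM in day 8 replicate 1 and 0.49 in day 4 replicate 2.

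The neuropilins, co-receptors of the VEGF family, were abundant and differed from each other. Nrp1 was at 34.0 ± 0.326 FPKM at day 0, 49.1 ± 3.53 at day 4 and 36.0 ± 0.313 at day 8, and it rose early by 0.60 on the log2 scale (SE 0.05, adjusted p = 2.9e-08). Nrp2 was at 49.7 ± 0.725 FPKM at day 0, 10.3 ± 1.55 at day 4 and 11.5 ± 0.592 at day 8, with a log2 fold change of -2.15 early (SE 0.08, adjusted p = 6.7e-13) and -2.00 over the whole process. Of the 3 VEGF receptor genes tested, 1 was called lower early and over the whole process, namely Nrp2, against 7.98% and 7.70% of all tested genes. None was called higher in any comparison, against 9.77% early, 4.24% late and 10.3% over the whole process.

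**Figure D4:**
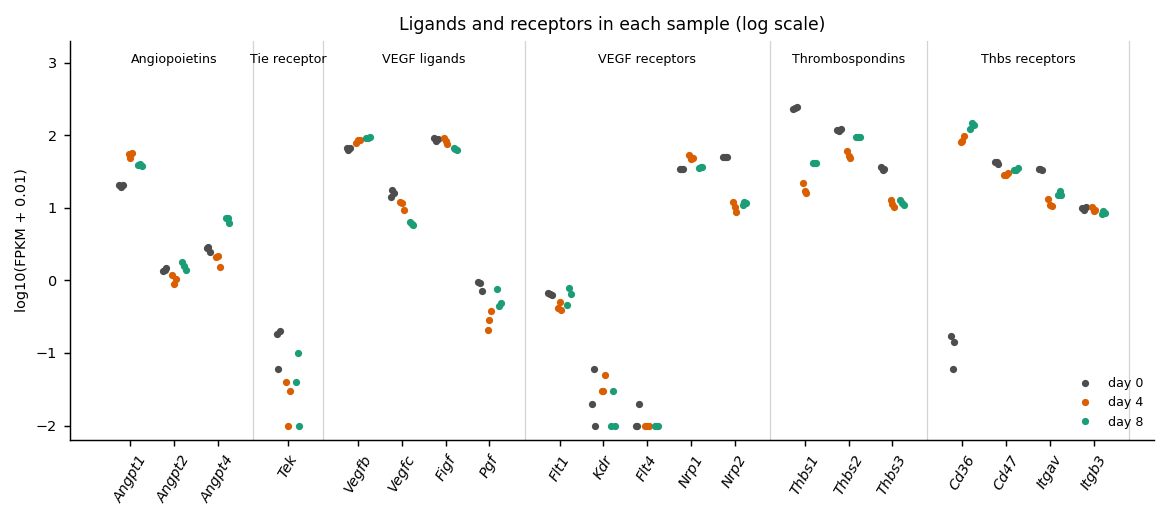
Dots give log10(FPKM + 0.01) in each sample, coloured by day, for ligands and their receptors, so that -2 stands for an FPKM of 0. Tek, Kdr and Flt4 lie below 0.2 FPKM in every sample while Nrp1 and Nrp2 lie near 10 or above, and Cd36 goes from about 0.1 FPKM at day 0 to above 80.

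All 8 genes listed for binding thrombospondins were tested, and they did not move as one. Early 2 were called higher and 2 lower, against 9.77% and 7.98% of all tested genes. Late none was called, against 4.24% higher and 2.81% lower, and over the whole process 1 was called higher and 2 lower, against 10.3% and 7.70%. Cd36, a fatty acid transporter that binds thrombospondins and is also a known PPAR target, was at 0.16, 0.05 and 0.13 FPKM at day 0, 80.0, 83.0 and 96.2 at day 4, and 122, 149 and 139 at day 8. Its day 0 values were all close to 0, and it rose early by 9.57 on the log2 scale (SE 0.17, adjusted p = 1.1e-16). Calr, a chaperone that also binds thrombospondin at the cell surface, rose early from 582 ± 6.36 to 1168 ± 3.53 FPKM.

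Other thrombospondin-binding genes were lower after induction. In the early phase Cd47 fell by 0.46 on the log2 scale (41.8 ± 1.58 to 29.0 ± 1.20 FPKM), and the integrin chains Itgav and Itga3 had log2 fold changes of -1.48 and -1.84. Lrp1, an endocytic receptor that clears thrombospondins, had one of -0.90 and Itgb1 one of -0.26, all with adjusted p below 0.05. Itgb3 did not pass the test, with log2 fold changes of 0.02 early, -0.10 late and -0.09 over the whole process. Thbs1, Itgav and Itga3 were thus all called lower early and over the whole process.

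For Angptl4 the genes around its lipase target were set beside it. Lpl, the lipase, was at 117 ± 3.95 FPKM at day 0, 1266 ± 182 at day 4 and 1748 ± 149 at day 8. Lpl rose early by 3.50 on the log2 scale (SE 0.09, adjusted p = 1.5e-14) and late by 0.51 (SE 0.08, adjusted p = 0.00011), next to 3.16 and 0.52 for Angptl4. Gpihbp1, which anchors the lipase on capillaries, stayed at or below 1.36 FPKM in all samples, and it rose late by 1.92 (adjusted p = 0.0017).

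Lmf1 and Sel1l, which help the lipase fold and leave the endoplasmic reticulum, moved little: Lmf1 rose early by 0.27 and Sel1l by 0.16 on the log2 scale. Lipg, an endothelial lipase that Angptl4 can also inhibit, was at 0.317 ± 0.0513 FPKM at day 0 and 0.0333 ± 0.00577 at day 4, with an early log2 fold change of -3.24 (adjusted p = 4e-06). Lipc, the hepatic lipase, did not pass the filter on low counts, with at most 0.22 FPKM. Of the 5 genes tested on this list, 1 was called higher and 1 lower early, 1 higher late, and 2 higher and 1 lower over the whole process, beside the shares of all genes given above.

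Of 11 further genes of the same families, 9 were tested. Early 4 were called higher and 3 lower, against 9.77% and 7.98% of all tested genes. Late 4 were called higher and 1 lower, against 4.24% and 2.81%, and over the whole process 3 higher and 2 lower, against 10.3% and 7.70%. Figf, which encodes VEGF-D, was the most abundant of them at 87.9 ± 5.26, 83.8 ± 7.87 and 64.8 ± 1.53 FPKM, and late it fell by 0.34 on the log2 scale (adjusted p = 0.00034), as its relative Vegfc did. Pgf, the placental growth factor, was at 0.94 FPKM or lower and early it fell by 1.53 (adjusted p = 0.0011). Angpt4 rose late by 1.88 (SE 0.14, adjusted p = 2.1e-08), from 1.91 ± 0.347 to 6.82 ± 0.606 FPKM. It stood above Angpt2 in the samples of each day, with 2.70 against 1.39 FPKM at day 0 and 6.82 against 1.59 at day 8.

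Early, like Thbs1 and Thbs2, Thbs3 fell by 1.53 on the log2 scale (34.5 ± 1.66 to 11.4 ± 1.3 FPKM, adjusted p = 3.4e-11), but its late log2 fold change was 0.08 (adjusted p = 0.45), against late rises of 1.22 for Thbs1 and 0.86 for Thbs2. The difference between them in the late phase was not tested. Comp, the cartilage member of the family, rose early by 1.55 from a low level (0.597 ± 0.137 to 1.68 ± 0.275 FPKM), and Thbs4 was listed in no sample.

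The smaller angiopoietin-like genes were low and variable across stages. Angptl8, an insulin-responsive inhibitor of lipoprotein lipase, was at 0.11, 0 and 0 FPKM at day 0, 1.03, 0.85 and 0.76 at day 4, and 2.41, 2.0 and 1.98 at day 8. It rose in each phase, like Angptl4, with a late log2 fold change of 1.31 (SE 0.29, adjusted p = 0.0015). Angptl1 was listed at 0.02 FPKM or lower at day 0 and at 1.65 ± 0.185 at day 4. Angptl7 was at 1.72 ± 0.107 FPKM at day 4 and at most 0.18 in any sample of the other days. Angptl6 fell by 1.09 early and rose by 1.47 late, the same order of signs as Thbs1, from 7.07 ± 0.926 to 3.19 ± 0.206 and then 8.56 ± 0.211 FPKM.

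A wider list of 56 regulators of vessel growth had 52 genes tested. Early 6 were called higher and 16 lower, against 9.77% and 7.98% of all tested genes. Late 11 were called higher and 2 lower, against 4.24% and 2.81%. Over the whole process 11 were called higher and 16 lower, against 10.3% and 7.70%, with median log2 fold changes of -0.50, 0.40 and -0.19. The 4 highest over the whole process were Lep, Egln3, Fgf1 and Nog. Lep, the adipocyte hormone leptin, was listed in no day 0 sample and was at 0.74, 0.94 and 0.98 FPKM at day 8. Egln3, an oxygen-sensing hydroxylase, rose by 5.57 on the log2 scale (1.46 ± 0.264 to 64.0 ± 9.13 FPKM). The growth factor Fgf1 rose by 4.55 and the BMP antagonist Nog by 3.56, both remaining at or below 1.21 FPKM. At day 0 Fgf1 was at 0.03 ± 0.01 and Nog at 0.09 ± 0.0173 FPKM, so the size of their fold changes rests on few reads.

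The 4 lowest were Ctgf, Grem1, Edn1 and Isg15. Grem1, another BMP antagonist, fell from 165 ± 22.7 to 5.80 ± 0.315 FPKM (log2 fold change -4.72, SE 0.13, adjusted p = 1.7e-14). Isg15, an interferon-induced gene, fell from 147 ± 29.5 to 15.5 ± 1.38 FPKM (-3.14, adjusted p = 1.2e-11). Ctgf, a matricellular growth factor, and Edn1, the vasoconstrictor endothelin 1, were low at day 0 (2.74 ± 0.769 and 2.37 ± 0.207 FPKM) with log2 fold changes of -5.02 and -3.17.

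The 8 genes differed in which other genes ran closest to them over the 9 samples, measured as the root mean square difference of centred log2 CPM (counts scaled to library size). Nearest to Angptl4 were Reep6 (0.07), Pparg (0.10) and Slc25a10 (0.10). Pparg was at 11.5, 93.2 and 130 FPKM on days 0, 4 and 8, beside 11.8, 100.5 and 139 for Angptl4. Nearest to Thbs1 were Tnc (0.18), Rerg (0.18) and Phf11d (0.25), the widest distances of the 8 genes.

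Nearest to Thbs2 were Fbln2 (0.06), Fzd1 (0.07) and Papss2 (0.08), and nearest to Angpt1 were Peli2 (0.06), Slc25a42 (0.07) and Aox1 (0.09). Vegfb ran with Adprh (0.03), Traf4 (0.03) and Bag1 (0.04), and Vegfc with Arid5b (0.08), Gla (0.12) and D030025P21Rik (0.12). The genes nearest to Angptl2 were Rab7 (0.04), Zkscan5 (0.04) and Atp6v0a2 (0.04), and those nearest to Angpt2 were Rybp (0.10), Ccdc24 (0.10) and Apba1 (0.10).

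Angptl4 is known to respond to PPARs, glucocorticoids and low oxygen, and thrombospondin 1 to the YAP and SRF programmes of the cytoskeleton, so genes listed for these responses were put beside them. Of all tested genes, 9.77% were called higher and 7.98% lower early, 4.24% and 2.81% late, and 10.3% and 7.70% over the whole process. By adjusted p alone, 35.5% of all tested genes rose and 33.7% fell early, and 22.5% and 22.7% late. Of 16 PPAR targets 13 were called higher and none lower early, 3 higher and 2 lower late, and 14 higher and none lower over the whole process, with a median log2 fold change of 4.17 early and 0.45 late. This list shares 4 genes with the adipocyte markers, and Fabp4, Lpl and Cidec were its most abundant genes. Of 11 glucocorticoid targets, all 11 rose early and all 11 fell late, 9 and 8 of them past 2-fold, with medians of 2.31 and -1.67. Over the whole process 8 of them rose and 2 fell by adjusted p alone, against 34.8% and 36.2% of all tested genes. For that comparison 2 were called higher and none lower, and the median was 0.63. Fkbp5, a co-chaperone of the glucocorticoid receptor, was at 12.7 ± 1.35, 199 ± 1.97 and 14.3 ± 0.486 FPKM. The log2 fold change of Angptl4 was 3.16 early and 0.52 late, and the part of glucocorticoids in either was not tested.

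Of 12 hypoxia targets tested, 5 were called higher early, 9 late and 10 over the whole process, none was called lower, and by adjusted p alone 9 rose and 2 fell early and all 12 rose late, the late share of all genes being 22.5%. The median log2 fold changes of the list were 0.71 early, 1.28 late and 2.04 over the whole process. Ldha, the lactate dehydrogenase of glycolysis, was at 217 ± 23.3, 437 ± 69.8 and 770.1 ± 40.6 FPKM. Of 12 YAP and SRF targets tested, 7 were called lower early and 7 over the whole process, 1 was called higher late, and the medians were -1.40, 0.11 and -1.16. Acta2, smooth muscle actin, fell by 2.59 on the log2 scale early and rose by 0.78 late, the same signs as Thbs1. In the late phase 5 genes of the list rose, 2 fell and 5 did not pass the test, against 22.5% and 22.7% of all genes rising and falling, and the 2 that fell, Cyr61 and Axl, had log2 fold changes of -0.75 and -0.80. What part any of these responses had in the levels of Angptl4 or Thbs1 was not tested.

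**Figure D5:**
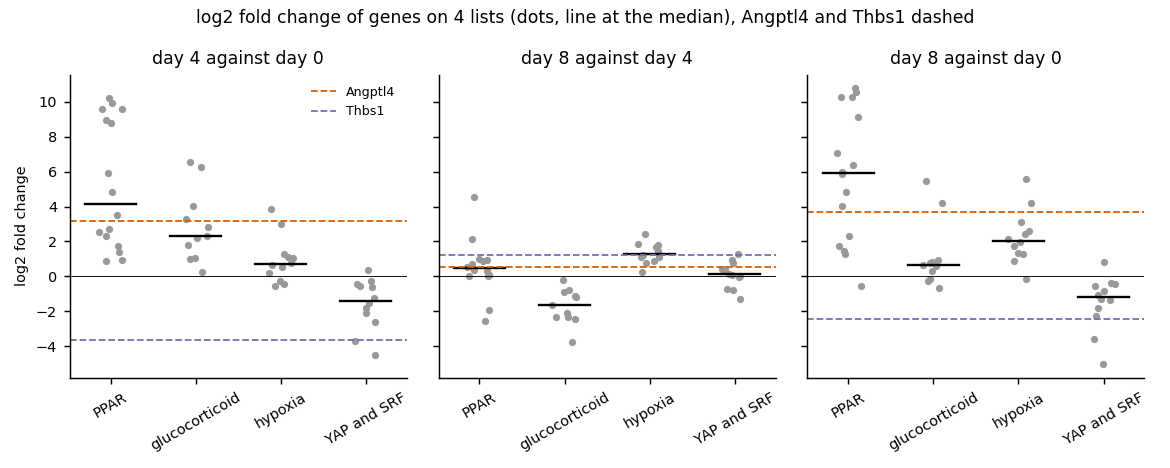
Dots are log2 fold changes of the tested genes on 4 lists, black lines their medians, and dashed lines the values of Angptl4 (orange) and Thbs1 (purple), in 3 panels for the early phase, the late phase and the whole process. In the late panel the glucocorticoid targets lie below 0, and the hypoxia targets, Angptl4 (0.52) and Thbs1 (1.22) lie above it.

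The adipocyte marker sums spread most at day 4. Day 4 replicate 1 had the lowest sum of adipocyte markers of the 3 (4992 FPKM, against 6122 and 7328) and the highest FPKM of Thbs1, Thbs2, Vegfc, Angptl2 and Angpt2 in its group, and it had the lowest FPKM of Angptl4 and Vegfb. The part of this sample's state in those values was not tested, and leaving it out changed no call past 2-fold among the 8 genes and moved only the whole-process value of Angpt2 across the threshold (adjusted p = 0.047). Of the exon bases of Angpt1 and Thbs1, 14.2% and 3.42% overlap an antisense gene, and the strand setting of the counting is not given in the sources used here, so reads there cannot be assigned with certainty.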

How the data were processed

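RNA-seq values of 9 samples of 3T3-L1 cells were used, grouped by the day in the sample labels. The authors removed low-quality reads and reads with adaptors or unknown bases, mapped the rest with HISAT/Bowtie2 and quantified genes with RSEM. The labels also name CASAVA 1.4, and the library kit they name is for another platform than the Illumina instrument of the methods. The genome build is not given in the sources used here. The deposited expected counts (RSEM's estimated count per gene) are not normalized, and 29.8% of them carry a fraction. FPKM, also deposited, are corrected by the authors for transcript length and library depth. A deposited column of transcript length was read only to check that it was stable between samples. Genes missing from a sample's table were set to 0.

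Expected counts were rounded and tested with edgeR 4.0.16 in R 4.3.3 (TMM factors, filterByExpr, quasi-likelihood F-test) in a single model of the 9 samples, with 13154 genes tested. P-values were adjusted by Benjamini-Hochberg over all tested genes. Calls needed an adjusted p under 0.05 and a log2 fold change beyond 1 in size. Standard errors are the log2 fold change divided by the square root of F. Fitted fold changes use TMM factors and FPKM do not, so they can differ slightly. FPKM are given as mean ± SD of 3 samples. At this depth 3 counts equal 0.147 to 0.165 CPM, a limit that covers counting error only. Levels near 0.1 FPKM are therefore uncertain. Log2 CPM used a prior count of 2.

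The genes and gene lists were chosen with earlier results of these data known, and no list was tested as a set. The sensory neuron markers were added after the labels' extraction text was read against the data. The text names the 8 genes, their receptors, partners, relatives and marker genes, the 4 highest and 4 lowest called regulators over the whole process, the 3 genes nearest to each of the 8, and up to 3 of the most abundant genes of each response list. No fold change is printed for a gene at 0 in a whole group. The fit still ranks and counts such a gene, which applies to Lep, and its fitted value depends on the prior count. 2 genes of the lists are not reported here. Promoter windows are from RefSeq and were found for 4 of the 8 genes. The alternatives were DESeq2 1.42.0, limma 3.58.1 on log2(FPKM + 1) and log2(FPKM + 0.1), edgeR's exact test, other scaling and filters, a replicate block, separate models and each sample left out. The main edgeR fit, the replicate block, edgeR's exact test and DESeq2 were tried on simulated data in which known genes changed. The other alternatives were not tried on such data.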

Additional observations from a re-analysis of the deposited data

How the results depend on the processing

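Of 456 alternative values for the 8 genes, 441 kept their direction and side of the threshold. A call past 2-fold was lost in 4 of the 456: Angpt1 over the whole process with no scaling factor (0.95) and with limma on log2(FPKM + 1) (0.92) and on log2(FPKM + 0.1) (0.95), and Thbs2 early without day 4 replicate 3 (-0.99). For Angpt2 the early log2 fold change was -0.38 with DESeq2 and between -0.48 and -0.29 with 1 sample left out, past the threshold in some of these only. Its whole-process value was past the threshold with RLE factors (0.32), with at least 10 counts in every sample (0.32) and with separate models of 2 days (0.32), and it lay between 0.22 and 0.41 with 1 sample left out. Angptl2 over the whole process turned to -0.063 with no scaling factor, -0.063 with limma on log2(FPKM + 1) and -0.064 with limma on log2(FPKM + 0.1), none of them past the threshold. Thbs2 over the whole process lay between -0.21 and -0.18 with 1 sample left out. Without a scaling factor the median of all genes over the whole process was -0.13, against -0.02. With limma on log2(FPKM + 1), 708 genes were called higher and 565 lower early, 224 and 136 late, and 753 and 528 over the whole process. With at least 10 counts in every sample, which tests fewer genes, 831 were called higher early, and 310 higher and 173 lower late. In other cases the cause was not tested. Of 1824 alternative counts over the lists, 151 moved by more than 1.5 times, 82 of them with 1 sample left out and 24 with limma. Same-numbered samples showed little shared deviation (mean r = 0.03, from -0.03 to 0.08). Different-numbered samples gave a mean r of -0.015 (from -0.1 to 0.06). With 3 samples a day, these values cannot decide whether the numbers pair the samples. The replicate block gave 1287 genes called higher and 1053 lower early, and it changed no call among the 8 genes. Depth limits genes with few reads, such as Angpt2 among the 8 genes and, at lower counts, Tek, Kdr, Lipg, Pgf, Gpihbp1, Fgf1 and Nog.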
